A study of Mus musculus with 10 samples.

Results

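The collagen genes of a mouse pancreatic tumour series were examined: every row of the count table whose symbol has the form Col, a number, a, and a number. The rule used names only and no measured value, and it found 44 of the 55487 genes in the table. The 10 samples were primary pancreatic tumours of KPF mice, a tumour model kept on the C57BL/6J background, and polyadenylated RNA of each tumour was sequenced as 1 library. Of these, 5 carried the label Grem1wt/wt and came from mice given peanut oil as the vehicle. The other 5 carried the label Grem1∆/∆ and came from mice that received tamoxifen (100 mg/kg, 1 dose daily on 5 days). Dosing began at 5 weeks of age in both groups, and the mice used were 6 to 12 weeks old. Both groups share the KPF alleles, which the labels do not spell out, nor do they name the promoter of the recombinase. Loss of Grem1, a secreted BMP antagonist, and exposure to tamoxifen cannot be told apart in this design. The samples are described as bulk tumour, while the protocol for RNA mentions sorted cells, and which of them holds is not settled by the labels.

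Collagens are extracellular proteins whose chains wind in triplets into a triple helix, for which glycine has to return at a fixed step along the chain. Fibrillar types I, III and V form the ropes of fibrous tissue, type IV forms the sheet of the basement membrane, type VI forms beaded filaments beside cells, and FACIT collagens sit on the surface of fibrils. In pancreatic ductal tumours, fibroblasts of a dense stroma are known as the main makers of fibrillar collagen. The genes themselves carry the helix in their structure, since many of their coding exons are 54 bases long, a whole number of glycine triplets. Among internal coding exons of the 11 fibrillar genes, 48.6% of 627 had this length, against 0.444% of 157229 in the other protein-coding genes of the annotation (GENCODE M21, build GRCm38). The share was 26.3% in FACIT genes and 4.23% in type IV genes. One 54-base exon is shown for each of 5 chains that dominate the results, read from the coding strand of the annotated transcripts, with the glycine codons at the regular step of 9 bases in capitals:

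Col1a1, chr11:94939904-94939957, plus strand: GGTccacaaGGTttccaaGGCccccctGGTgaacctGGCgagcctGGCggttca
Col1a2, chr6:4515481-4515534, plus strand: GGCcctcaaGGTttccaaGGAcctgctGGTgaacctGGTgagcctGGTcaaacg
Col3a1, chr1:45325360-45325413, plus strand: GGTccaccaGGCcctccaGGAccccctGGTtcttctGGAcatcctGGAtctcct
Col5a1, chr2:27965251-27965304, plus strand: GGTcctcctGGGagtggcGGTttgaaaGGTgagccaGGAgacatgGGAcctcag
Col4a1, chr8:11245211-11245264, minus strand: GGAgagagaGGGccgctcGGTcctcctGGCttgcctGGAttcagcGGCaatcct

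Each of these exons encodes 18 codons, of which 6 are the regularly spaced glycine codons, and a glycine codon outside that step is in lower case. The same spacing was present in 21 of 21 exons of this length in Col1a1, 23 of 24 in Col1a2, 24 of 24 in Col3a1, 29 of 29 in Col5a1 and 2 of 2 in Col4a1.

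The library totals were between 10159891 and 18571519 estimated counts. Levels are given as CPM, counts scaled to library size. Grem1 itself stood at 3.97 to 43.1 CPM in the wild-type tumours and at 6.83 to 110.1 CPM in the tumours labelled deleted (log2 fold change 1.08, SE 0.79), so its level did not mark the label. The groups are therefore called wild-type and labelled-deleted throughout. On the first principal component, with 39.88% of the variance, labelled-deleted tumour 1 lay far from the remaining libraries, and labelled-deleted tumour 2 held intestinal transcripts (summed marker level 1804 CPM, against 34.3 to 122 CPM in the others). Where a fold change of a gene given by tumour rests on single libraries, its extremes with 1 tumour left out stand beside it.

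Collagen transcripts made up 2.74, 2.60, 3.84, 3.84 and 3.07% of all counts in wild-type tumours 1 to 5. In labelled-deleted tumours 1 to 5 they made up 1.49, 2.39, 3.83, 3.31 and 2.59%. Tumour 1 of the labelled-deleted group was the lowest of all, and the other 4 lay within or just under the wild-type range. The means were 3.22% ± 0.593 (SD, n = 5) and 2.72% ± 0.898 (SD, n = 5), and the latter was 3.03% ± 0.664 (SD, n = 4) without labelled-deleted tumour 1. In bulk tissue, fewer cells of a type and less RNA per cell cannot be told apart. Col1a1, Col1a2 and Col3a1 supplied most of this RNA, with 61.1% of collagen counts on average and a range of 47.1 to 68.6% over the 10 tumours. By class, fibrillar genes gave 69.9% of collagen counts on average, type IV genes 9.73%, type VI genes 7.75%, multiplexins 6.02% and FACIT genes 3.86%. The multiplexin share was 14.2% in labelled-deleted tumour 1 and 3.19 to 8.18% in the other 9.

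**Figure D1:**
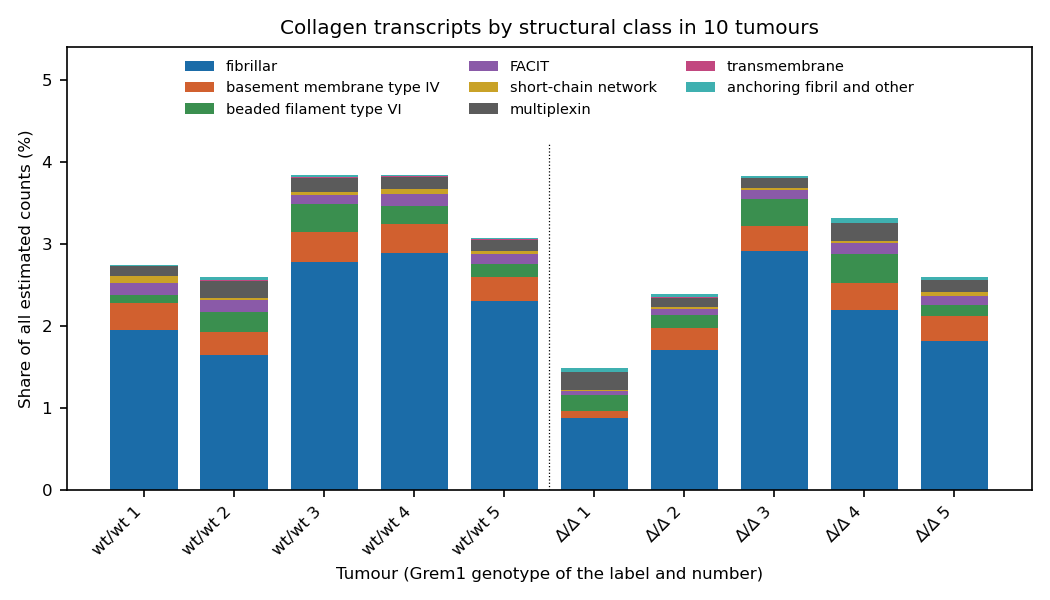
Share of all counts of a library held by collagen genes (y axis, percent of total estimated count), stacked by structural class for the 10 tumours (x axis, 1 bar per tumour, by labelled group). Fibrillar genes fill most of each bar, and the bar of labelled-deleted tumour 1 is the shortest at 1.49%.

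Levels of different genes were compared per length, as mean CPM over the 10 tumours divided by the length in kb of the longest annotated transcript. On this scale Col1a1 led with 1132, followed by Col3a1 with 1115 and Col1a2 with 1052 CPM per kb. These 3 also ranked 4, 6 and 7 among all genes of the table by mean CPM. A wide step separated them from the next chains, Col4a1 with 250.3, Col6a1 with 246, Col4a2 with 187, Col18a1 with 167 and Col6a2 with 165 CPM per kb. With all annotated exons joined as the length, Col1a1 was at 1023, Col3a1 at 632, Col1a2 at 453, Col6a1 at 230.5 and Col4a1 at 222 CPM per kb, so the step was smaller and the last pair changed places. On the longest transcript, further down came Col5a2 with 147, Col5a1 with 146, Col15a1 with 133 and Col12a1 with 71.5 CPM per kb. At the low end, 5 genes did not pass the filter on low counts: Col17a1, Col19a1, Col22a1, Col26a1 and Col9a1, whose counts summed over the 10 libraries to 77, 4, 64, 87 and 2. Col17a1, a transmembrane collagen of epithelial cells that are anchored to a basement membrane, lay at 0.0786 to 1.14 CPM, although the 6 epithelial markers of these tumours summed to 1720.0 to 5299 CPM.

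Between the groups, no collagen gene passed the test. Of the 39 collagen genes tested, 0 had an adjusted p under 0.05 (edgeR quasi-likelihood test, Benjamini-Hochberg adjustment over 16565 genes), and the same test called 0% of all genes. The lowest adjusted p of a collagen gene was 0.759. At an unadjusted p under 0.05, 3 of 39 collagen genes (7.69%) stood beside 983 of all genes (5.93%), a share near the background. These were Col2a1, Col25a1 and Col7a1, each with the higher fitted level in the labelled-deleted tumours, where 3.47% of all genes passed in that direction and 2.46% in the other. DESeq2 called 7 of the 31198 genes to which it gave an adjusted p (0.0224%), 0 of them collagen genes, and limma-voom called 0. The groups overlapped in each of the 39 genes, while 0.93% of all genes had groups that did not overlap. The log2 fold changes of labelled-deleted over wild-type were above 0 in 16 and below 0 in 23 collagen genes, or 59% below 0, whereas 44.9% of all genes lay below 0 and 55.1% above. Their median was -0.07, against 0.03 over all genes tested. Without labelled-deleted tumour 1 the split was 22 above and 18 below with a median of 0.05, and leaving out labelled-deleted tumour 2 as well gave 26 and 14 with a median of 0.13. Leaving out wild-type tumour 3 gave 21 and 18 with a median of 0.11. The direction of the median therefore rested on single libraries.

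**Figure D2:**
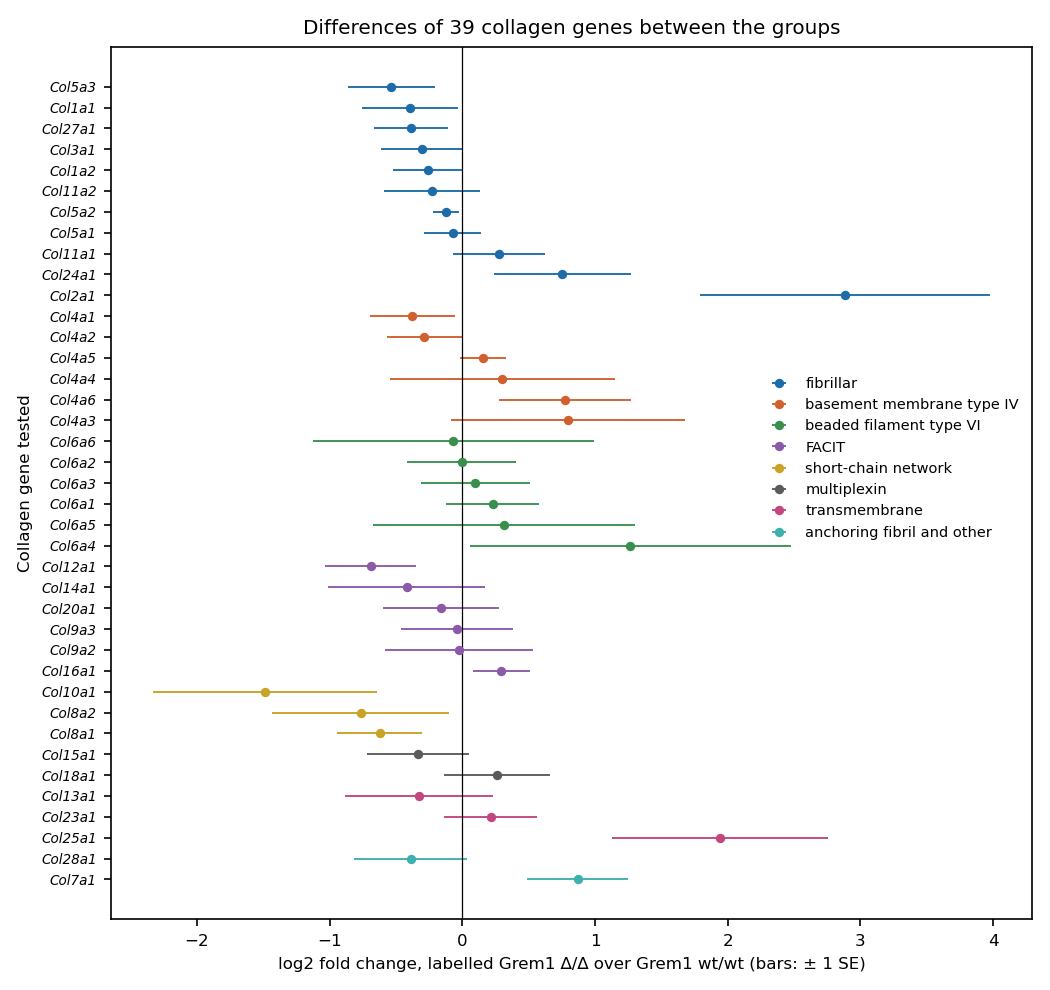
Log2 fold change of labelled-deleted over wild-type tumours (x axis, points, with bars of ± 1 SE) for the 39 collagen genes tested (y axis, coloured by structural class). The points lie on both sides of 0, from -1.48 for Col10a1 to 2.88 for Col2a1, and no gene passed the adjusted threshold.

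Among fibrillar genes, 3 of 11 had log2 fold changes above 0 and 8 below 0, with a median of -0.23. Col1a1 (chr11:94936224-94953042, plus strand) and Col1a2 (chr6:4504814-4541544, plus strand) encode the chains of type I collagen, the main fibril of most connective tissue. Col1a1 stood at 5659, 5159, 9048, 10434 and 7833 CPM in wild-type tumours 1 to 5 and 1815, 5416, 8805, 7147 and 5821 CPM in labelled-deleted tumours 1 to 5 (log2 fold change -0.39, SE 0.36, from -0.61 on leaving out labelled-deleted tumour 3 to -0.17 on leaving out labelled-deleted tumour 1). Col1a2 stood at 5239, 4706, 7408, 7694 and 5631 CPM in wild-type tumours 1 to 5 and 2671, 4233, 7682, 6093 and 4917 CPM in labelled-deleted tumours 1 to 5 (log2 fold change -0.26, SE 0.26, from -0.47 on leaving out labelled-deleted tumour 3 to -0.10 on leaving out labelled-deleted tumour 1). For both chains labelled-deleted tumour 1 was the lowest library and the other 4 labelled-deleted tumours lay inside the wild-type range or close to it. Col3a1 (chr1:45311538-45349706, plus strand), whose chain forms type III collagen and mixes with type I in pliable tissue, stood at 6256, 3972, 8274, 8281 and 7494 CPM in wild-type tumours 1 to 5 and 2739, 5043, 9360.0, 5517 and 5080.1 CPM in labelled-deleted tumours 1 to 5 (log2 fold change -0.31, SE 0.31, from -0.59 on leaving out labelled-deleted tumour 3 to -0.13 on leaving out labelled-deleted tumour 1). It was again lowest in labelled-deleted tumour 1, and labelled-deleted tumour 3 held the highest value of all 10.

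Type V collagen lies inside type I fibrils and limits their width. Col5a1 stood at 848, 1130.1, 1773, 1338 and 1220.4 CPM in wild-type tumours 1 to 5 and 829, 1119.7, 1500.2, 1497 and 1049.8 CPM in labelled-deleted tumours 1 to 5 (log2 fold change -0.07, SE 0.22, from -0.19 on leaving out wild-type tumour 1 to 0.08 on leaving out wild-type tumour 3). Its groups overlapped almost wholly, and the sign of the difference turned when either wild-type tumour 3 or labelled-deleted tumour 1 (0.03) was left out. Col5a2, the second type V chain, stood at 967, 968, 992, 1166 and 983 CPM in wild-type tumours 1 to 5 and 810.4, 946, 887, 1064 and 949 CPM in labelled-deleted tumours 1 to 5 (log2 fold change -0.12, SE 0.10, from -0.19 on leaving out labelled-deleted tumour 4 to -0.07 on leaving out wild-type tumour 4). Its highest value was 1.44 times its lowest, the narrowest range among the 39 collagen genes tested. Col5a3, a further type V chain, stood at 212, 125, 192, 179 and 201 CPM in wild-type tumours 1 to 5 and 39.8, 180.0, 126, 147 and 135 CPM in labelled-deleted tumours 1 to 5 (log2 fold change -0.54, SE 0.33, from -0.70 on leaving out labelled-deleted tumour 2 to -0.31 on leaving out labelled-deleted tumour 1). Its wild-type range of 125 to 212 CPM took in 4 of the 5 labelled-deleted values, with labelled-deleted tumour 1 far below the rest.

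Col2a1 encodes the chain of type II collagen, the fibril of cartilage. It stood at 0.393, 2.28, 0.495, 0 and 0.101 CPM in wild-type tumours 1 to 5 and 1.16, 9.08, 0.492, 2.30 and 10.7 CPM in labelled-deleted tumours 1 to 5. The highest values were those of labelled-deleted tumours 5 and 2, while labelled-deleted tumours 1 and 3 lay among the wild-type values. The log2 fold change was 2.88 (SE 1.09, edgeR unadjusted p = 0.024, adjusted p = 0.759) on low counts, and it lay between 2.34 and 4.23 with any 1 tumour left out. Beside it, 7 cartilage and bone markers summed to 2.56 to 16.2 CPM in the wild-type tumours and 6.16 to 25.8 CPM in the labelled-deleted tumours. Acan, the core protein of the cartilage proteoglycan, made up most of that sum and was highest in labelled-deleted tumours 2 (23.7 CPM) and 5 (23.0 CPM). Of the other cartilage genes, Matn1 was at 0 in 4 tumours and at most 0.493 CPM, Cnmd was at 0 in 5 tumours and at most 0.246 CPM, Matn3 reached at most 0.472 CPM, and Hapln1 lay between 0.0710 and 1.07 CPM. The part of such cells in the result was not tested. Of the remaining fibrillar genes, Col11a1 lay at 22.8 to 118 CPM, Col27a1 at 35.3 to 129 CPM, Col24a1 at 2.76 to 29.1 CPM and Col11a2 at 1.69 to 8.70 CPM over the 10 tumours. Their log2 fold changes were 0.28, -0.39, 0.75 and -0.23, each with an adjusted p of at least 0.759.

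**Figure D3:**
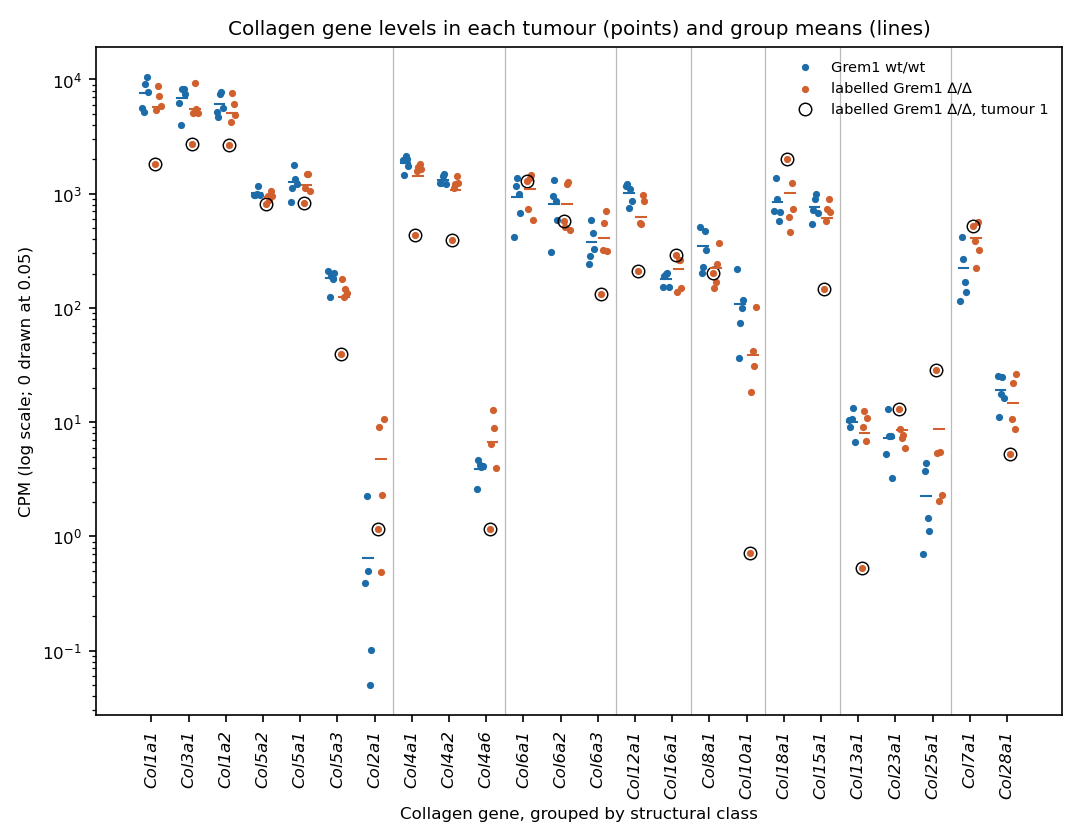
CPM (y axis, log scale) of 24 collagen genes in each of the 10 tumours (points, coloured by labelled group, with short lines for group means and a ring around labelled-deleted tumour 1), ordered by structural class along the x axis. The points of the groups overlap for each gene, and labelled-deleted tumour 1 lies below the others for Col4a1, Col4a2, Col15a1, Col10a1 and Col13a1 and above them for Col18a1 and Col25a1.

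Type IV collagen is the network of basement membranes, and Col4a1 and Col4a2 encode the chains found in nearly all of them. The genes lie head to head on chromosome 8 (Col4a1 at chr8:11198423-11312826, minus strand, and Col4a2 at chr8:11312805-11449287, plus strand), with 22 annotated bases in common, so some reads could belong to either. Col4a1 stood at 1954, 1445, 2158, 2028 and 1765 CPM in wild-type tumours 1 to 5 and 434, 1584, 1722, 1808 and 1657 CPM in labelled-deleted tumours 1 to 5 (log2 fold change -0.38, SE 0.32, from -0.48 on leaving out labelled-deleted tumour 4 to -0.14 on leaving out labelled-deleted tumour 1). Col4a2 stood at 1251, 1231, 1433, 1475 and 1217 CPM in wild-type tumours 1 to 5 and 392, 1123, 1229, 1427 and 1253 CPM in labelled-deleted tumours 1 to 5 (log2 fold change -0.28, SE 0.28, from -0.41 on leaving out labelled-deleted tumour 4 to -0.07 on leaving out labelled-deleted tumour 1). Labelled-deleted tumour 1 was far below the other 9 libraries for both chains. The same tumour was also lowest for the summed level of 6 endothelial markers, at 170 CPM against 297 to 666 CPM in the others, and of 6 epithelial markers, at 1720.0 CPM against 3224 to 5299 CPM. The part of these cell types in the type IV level was not tested.

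The other type IV chains occur in specialised membranes such as those of the kidney glomerulus and were low here. Col4a5 lay at 26.1 to 55.5 CPM, Col4a3 at 0.623 to 15.9 CPM and Col4a4 at 0.393 to 9.69 CPM. Col4a6, which lies head to head with Col4a5 on the X chromosome, stood at 2.59, 4.65, 4.21, 4.03 and 4.13 CPM in wild-type tumours 1 to 5 and 1.16, 6.46, 12.9, 8.97 and 4.01 CPM in labelled-deleted tumours 1 to 5 (log2 fold change 0.77, SE 0.50, from 0.39 on leaving out labelled-deleted tumour 3 to 1.04 on leaving out labelled-deleted tumour 1). Labelled-deleted tumours 2, 3 and 4 held its highest values, and the other 2 labelled-deleted values lay at or below those of wild-type tumours 2 to 5. Over the class, 4 of 6 log2 fold changes were above 0 and 2 below 0 (median 0.23), the 2 abundant chains being those below.

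Type VI collagen is built of 1 chain each of Col6a1, Col6a2 and a variable chain, usually Col6a3. Col6a1 stood at 417, 1175, 1386, 998 and 672 CPM in wild-type tumours 1 to 5 and 1287, 728, 1371, 1466 and 594 CPM in labelled-deleted tumours 1 to 5 (log2 fold change 0.23, SE 0.35, from 0.04 on leaving out wild-type tumour 1 to 0.42 on leaving out wild-type tumour 3). Col6a2 stood at 311, 961, 1324, 869 and 589 CPM in wild-type tumours 1 to 5 and 578, 510.4, 1212, 1266 and 478 CPM in labelled-deleted tumours 1 to 5. Its log2 fold change was -0.0039 (SE 0.41), turned sign with size factors or with no scaling, and lay between -0.23 without labelled-deleted tumour 4 and 0.24 without wild-type tumour 3. Both chains varied widely inside each group, and wild-type tumour 1 and labelled-deleted tumour 5 were low for each. Col6a3 stood at 243, 286, 595, 449 and 331 CPM in wild-type tumours 1 to 5 and 132, 322, 554, 712 and 317 CPM in labelled-deleted tumours 1 to 5 (log2 fold change 0.10, SE 0.41, from -0.21 on leaving out labelled-deleted tumour 4 to 0.32 on leaving out labelled-deleted tumour 1). Its sign turned on leaving out any of 4 libraries, labelled-deleted tumour 4 among them, to -0.05 on leaving out labelled-deleted tumour 3, to -0.03 on leaving out wild-type tumour 1 and to -0.0025 on leaving out wild-type tumour 2. In labelled-deleted tumour 1, Col6a1 was among the higher values while Col6a3 was the lowest of all 10. The class as a whole had 4 log2 fold changes above 0 and 2 below 0, with a median of 0.16.

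FACIT collagens bind along fibrils and interrupt the helix with other domains. Of 9 listed genes, 6 were tested, and 1 of these had a log2 fold change above 0 and 5 below 0 (median -0.10). Col12a1, a large FACIT chain of type I fibrils, stood at 1176, 1205, 745, 1090.2 and 865 CPM in wild-type tumours 1 to 5 and 212, 555, 542, 970.4 and 869 CPM in labelled-deleted tumours 1 to 5. The wild-type values began at 745 CPM, and labelled-deleted tumours 4 and 5 lay above that while labelled-deleted tumours 1, 2 and 3 lay below. Its log2 fold change of -0.69 (SE 0.34) had an edgeR unadjusted p of 0.072 and an adjusted p of 0.759, and lay between -0.91 without labelled-deleted tumour 4 and -0.47 without labelled-deleted tumour 1. Col16a1, a FACIT chain of varied fibrils, stood at 154, 189, 198, 203 and 154 CPM in wild-type tumours 1 to 5 and 288, 138, 261, 263 and 149 CPM in labelled-deleted tumours 1 to 5 (log2 fold change 0.29, SE 0.22, from 0.18 on leaving out labelled-deleted tumour 1 to 0.42 on leaving out labelled-deleted tumour 2). Labelled-deleted tumours 1, 3 and 4 were its highest libraries and labelled-deleted tumours 2 and 5 its lowest. Of the others tested, Col14a1 lay at 20.5 to 225 CPM, Col20a1 at 0.623 to 4.02 CPM, Col9a3 at 1.07 to 4.71 CPM and Col9a2 at 0.236 to 2.39 CPM, with log2 fold changes from -0.42 to -0.03.

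The 3 short-chain network genes all had log2 fold changes below 0, with a median of -0.76 and no call. Col8a1, whose chain forms sheets beneath vascular and corneal endothelium, stood at 513, 201, 226.5, 476 and 322 CPM in wild-type tumours 1 to 5 and 204, 149, 168, 242 and 367 CPM in labelled-deleted tumours 1 to 5 (log2 fold change -0.62, SE 0.32). Wild-type tumours 1 and 4 were highest, and labelled-deleted tumour 5 lay above the other 3 wild-type tumours. Col10a1, known for cartilage that is turning to bone, stood at 219, 36.7, 73.3, 99.8 and 116 CPM in wild-type tumours 1 to 5 and 0.712, 18.2, 42.03, 31.2 and 102 CPM in labelled-deleted tumours 1 to 5 (log2 fold change -1.48, SE 0.84, from -2.24 on leaving out labelled-deleted tumour 5 to -1.07 on leaving out wild-type tumour 1). Its range was wide in both groups: wild-type tumour 1 was the highest library, labelled-deleted tumour 1 held 8 counts in all, and labelled-deleted tumour 5 exceeded 3 wild-type tumours. An exon of Col10a1 overlaps Nt5dc1, a gene of the opposite strand, and no source used here says whether counting used strand, so reads of the pair may be mixed. Col8a2, the partner chain of Col8a1, lay at 1.25 to 55.0 CPM (log2 fold change -0.76, SE 0.67).

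Multiplexins Col15a1 and Col18a1 carry sugar chains in the zone around basement membranes, and the end of the Col18a1 chain is released as endostatin. Col15a1 stood at 546, 724, 902, 991 and 676 CPM in wild-type tumours 1 to 5 and 148, 572, 741, 892 and 686 CPM in labelled-deleted tumours 1 to 5 (log2 fold change -0.34, SE 0.38, from -0.53 on leaving out labelled-deleted tumour 4 to -0.09 on leaving out labelled-deleted tumour 1). Col18a1 stood at 709, 1374, 894, 581 and 695 CPM in wild-type tumours 1 to 5 and 2031, 624, 459, 1253 and 734 CPM in labelled-deleted tumours 1 to 5 (log2 fold change 0.26, SE 0.40, from -0.15 on leaving out labelled-deleted tumour 1 to 0.49 on leaving out wild-type tumour 2). The paralogs diverged in labelled-deleted tumour 1, which was the lowest library for Col15a1 and the highest for Col18a1. The sign of the Col18a1 difference turned without it.

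Transmembrane collagens are anchored in the cell membrane and were scarce. Col13a1 stood at 10.5, 9.02, 10.7, 13.3 and 6.65 CPM in wild-type tumours 1 to 5 and 0.534, 9.08, 12.6, 6.89 and 10.8 CPM in labelled-deleted tumours 1 to 5 (log2 fold change -0.33, SE 0.56, from -0.56 on leaving out labelled-deleted tumour 3 to -0.03 on leaving out labelled-deleted tumour 1). All libraries but labelled-deleted tumour 1 lay between 6.65 and 13.3 CPM. Col23a1 stood at 5.27, 12.9, 7.60, 7.63 and 3.23 CPM in wild-type tumours 1 to 5 and 13.0, 8.66, 7.22, 7.79 and 5.92 CPM in labelled-deleted tumours 1 to 5 (log2 fold change 0.21, SE 0.35, from 0.01 on leaving out labelled-deleted tumour 1 to 0.50 on leaving out wild-type tumour 2). Wild-type tumour 2 and labelled-deleted tumour 1 were its highest libraries. Col25a1, a collagen known from neurons, stood at 0.708, 3.73, 4.38, 1.46 and 1.11 CPM in wild-type tumours 1 to 5 and 28.8, 5.39, 2.05, 5.44 and 2.30 CPM in labelled-deleted tumours 1 to 5. Labelled-deleted tumour 1 was several times above every other library. The log2 fold change of 1.94 (SE 0.82, edgeR unadjusted p = 0.038, adjusted p = 0.759) was 0.74 without that tumour. Of 5 Schwann and nerve markers, which summed to 8.91 to 22.3 CPM in the wild-type tumours and 5.07 to 21.8 CPM in the labelled-deleted tumours, labelled-deleted tumour 1 held the lowest sum.

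Col7a1 encodes the chain of anchoring fibrils, which tie epithelium to the tissue beneath. It stood at 115, 420.2, 269, 170.0 and 138 CPM in wild-type tumours 1 to 5 and 527, 389, 226, 568 and 322 CPM in labelled-deleted tumours 1 to 5. Wild-type tumour 2 lay above labelled-deleted tumours 2, 3 and 5, so the groups overlapped. The log2 fold change was 0.87 (SE 0.38, edgeR unadjusted p = 0.044, adjusted p = 0.759), and it lay between 0.70 and 1.22 with any 1 tumour left out. The 6 epithelial markers summed to 4339.6 to 5299 CPM in the wild-type tumours and 1720.0 to 4704 CPM in the labelled-deleted tumours, and their part in the result was not tested. Col28a1 stood at 25.4, 11.0, 17.7, 25.02 and 16.3 CPM in wild-type tumours 1 to 5 and 5.25, 10.7, 22.0, 8.65 and 26.3 CPM in labelled-deleted tumours 1 to 5 (log2 fold change -0.39, SE 0.42, from -0.72 on leaving out labelled-deleted tumour 5 to -0.18 on leaving out labelled-deleted tumour 1). Labelled-deleted tumours 1 and 4 were its lowest libraries, and labelled-deleted tumour 5 its highest.

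Ratios between chains of 1 collagen molecule were computed per length in each tumour. Col1a1 over Col1a2 was 1.05 ± 0.178 (SD, n = 10). It lay between 0.974 and 1.25 in 9 tumours and at 0.613 in labelled-deleted tumour 1. The mean depends on the length used, and was 2.198 when all annotated exons of each gene were joined, so only the spread of a ratio over tumours is read here. Col4a1 over Col4a2 had the narrowest spread of the ratios computed, 1.08 to 1.52, and labelled-deleted tumour 1 lay close to its nearest neighbour (1.08 and 1.14) although both chains were low there. Col5a1 over Col5a2 lay between 0.691 and 1.41. Col6a1 over Col6a2 lay between 1.25 and 1.71 in 9 tumours and at 2.67 in labelled-deleted tumour 1. For Col6a1 over Col6a3 the corresponding values were 4.23 to 10.1 and 24.0. The chains of type VI thus stood in another proportion in that library, as did those of type I.

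Ratios across molecules separated the same library further. Col18a1 over Col15a1 was 0.542 to 1.75 in 9 tumours and 12.7 in labelled-deleted tumour 1. Col6a1 over Col1a1 was 0.107 to 0.330 in the 9 and 1.03 in that tumour. Col4a1 over Col1a1, by contrast, was 0.214 there and 0.174 to 0.310 in the others. The fibroblast markers of labelled-deleted tumour 1 were uneven as well. Pdgfrb (353 CPM) was higher there than in any other library, while Dcn (147 CPM), Lum (51.4 CPM) and Dpt (3.29 CPM) were lower there than in any other. The summed level of 8 fibroblast markers was 1228 to 1659 CPM in the wild-type tumours and 1044 to 2467 CPM in the labelled-deleted tumours, with labelled-deleted tumour 1 lowest. Its pericyte markers were likewise uneven, with Rgs5 at 22.3 CPM as the lowest and Cspg4 at 207 CPM as the highest library. The part of the cell makeup in these ratios was not tested.

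**Figure D4:**
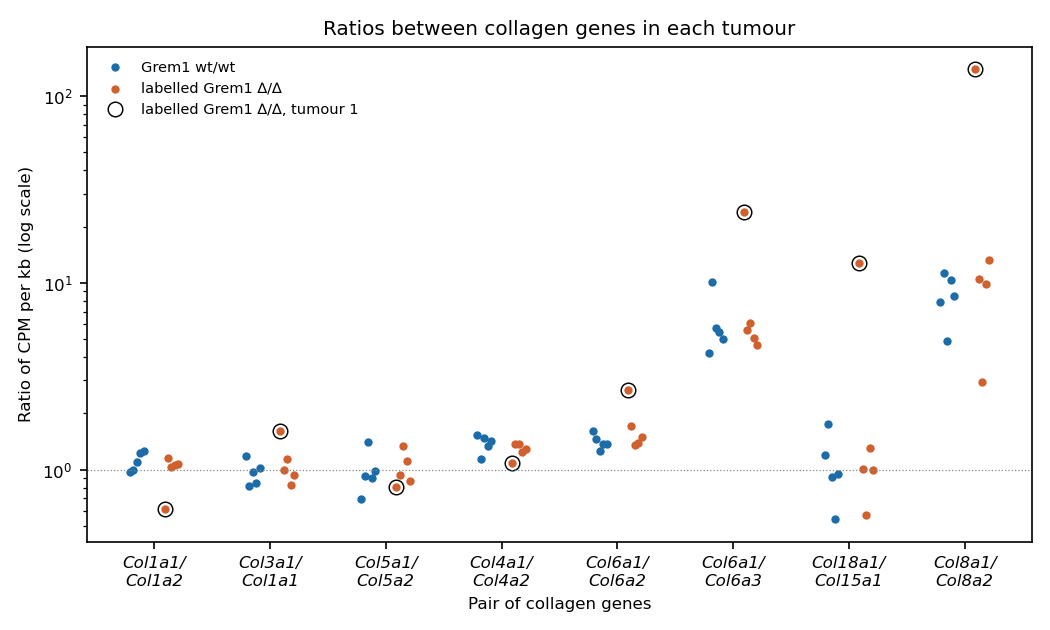
Ratios of collagen chain levels per length (y axis, log scale) in the 10 tumours (points, coloured by labelled group, ringed for labelled-deleted tumour 1), 1 column per pair of chains (x axis). Col4a1 over Col4a2 keeps within 1.08 to 1.52, while labelled-deleted tumour 1 stands away from the rest for Col18a1 over Col15a1 at 12.7.

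The covariation of collagen genes over the 10 tumours was described by correlation of log2 CPM with Col1a1. Of 38 other collagen genes, 32 had a positive Pearson r (84.2%, against 49% of all genes), with a median r of 0.73 against -0.02 over all genes. After adjustment over 16564 genes, 0 of the 38 passed at 0.05, where 0.0241% of all genes did. The permutation test had 100000 permutations per gene, so its smallest p was 1e-05. A gene at that p could pass the adjustment only together with others, and no collagen gene was at it. Col1a2 followed Col1a1 most closely (Pearson r = 0.96, permutation p = 6e-05, adjusted p = 0.0675, Spearman rho = 0.95, permutation p = 0.00017). Without labelled-deleted tumour 1 and wild-type tumour 4, the libraries farthest from the median of Col1a1, its r was 0.93. Next were Col15a1 (r = 0.94, permutation p = 0.00131, adjusted p = 0.0879; rho = 0.79, permutation p = 0.009) and Col4a1 (r = 0.93, permutation p = 0.00208, adjusted p = 0.095; rho = 0.82, permutation p = 0.00587). Their r was 0.63 for both without the same libraries. Col3a1 kept an r of 0.90 under that omission.

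At the other end, Col18a1 had an r of -0.73 (permutation p = 0.016, adjusted p = 0.12; rho = -0.59, permutation p = 0.0813). Col25a1 had an r of -0.72 (permutation p = 0.035, adjusted p = 0.15; rho = -0.42, permutation p = 0.234), and Col23a1 of -0.52 (permutation p = 0.139, adjusted p = 0.276; rho = -0.50, permutation p = 0.144). Without the libraries farthest from the median these values were -0.29, -0.01 and -0.34, so the negative relation of Col25a1 rested on those libraries. That of Col18a1 was weaker without them, and its r was -0.54 without labelled-deleted tumours 1 and 2. Col10a1 moved likewise from 0.81 to 0.09 and Col12a1 from 0.69 to -0.44. Over the 8 tumours without labelled-deleted tumours 1 and 2 the collagen median of r was 0.38 against -0.0077 over all genes, and 0 of 38 passed by the exact permutation test, which 0% of all genes passed. The smallest p of the exact permutation test was 4.96e-05, so a gene could pass the adjustment only together with many others. On residuals from the group means, 8 of 38 passed, beside 340 genes (2.05%) with a positive r in the whole table.

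**Figure D5:**
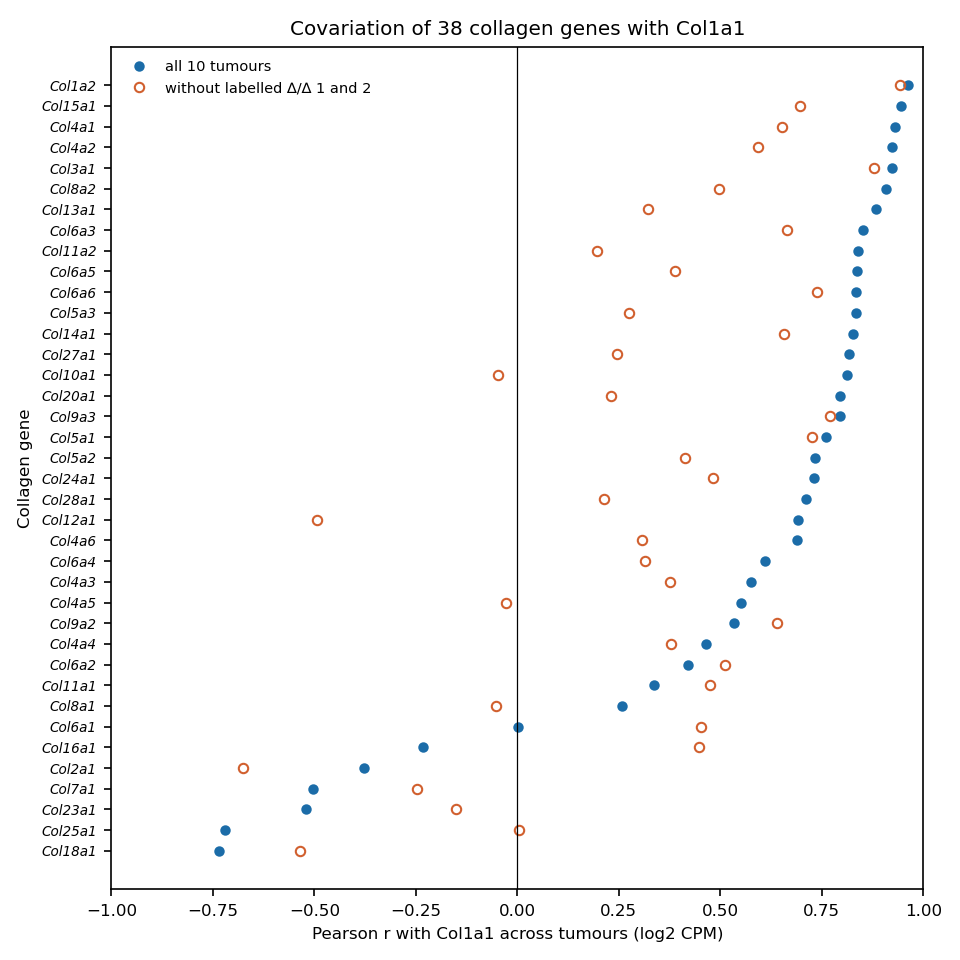
Pearson r with Col1a1 over the 10 tumours (filled) and without labelled-deleted tumours 1 and 2 (open) on the x axis for 38 collagen genes (y axis, ordered by r). Col1a2 and Col3a1 stay near 0.9 in both, whereas Col10a1 and Col12a1 move from positive values to below 0.

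The promoters of Col1a2 and Col3a1, which followed Col1a1 over the tumours with an r of 0.96 and 0.92, are shown as the 250 bases before the annotated start (RefSeq, GRCm38.p6), with a CCAAT motif or its reverse complement ATTGG and a TATAAA motif or its reverse complement TTTATA in capitals:

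Col1a2, chr6:4505368-4505617, plus strand: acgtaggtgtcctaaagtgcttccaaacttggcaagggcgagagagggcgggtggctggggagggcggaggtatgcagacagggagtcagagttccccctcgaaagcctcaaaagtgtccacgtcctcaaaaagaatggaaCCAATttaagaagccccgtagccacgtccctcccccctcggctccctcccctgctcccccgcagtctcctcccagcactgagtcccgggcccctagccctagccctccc
Col3a1, chr1:45311288-45311537, plus strand: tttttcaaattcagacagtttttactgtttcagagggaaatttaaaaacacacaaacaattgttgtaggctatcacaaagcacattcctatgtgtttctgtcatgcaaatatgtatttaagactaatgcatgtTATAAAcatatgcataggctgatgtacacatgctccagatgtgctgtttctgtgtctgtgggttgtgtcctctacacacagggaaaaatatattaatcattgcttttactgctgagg

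The Col1a2 window holds 1 CCAAT, which begins 109 bases before the RefSeq start, and the Col3a1 window holds 1 TATAAA. In GENCODE M21 the Col1a2 gene begins at chr6:4504814, so the Col1a2 window lies inside it and the distance holds for the RefSeq start only. The shares in collagen windows lay close to those over all windows for these motifs: CCAAT or ATTGG was in 34.2% of 38 windows of 35 collagen genes and in 33.8% of all 32851 windows, and TATAAA or TTTATA in 13.2% and 12.4%. GGGCGG or CCGCCC, searched for on both strands of the same windows and sharing no stretch with the motifs above, was in 57.9% and 32.7%. The windows shown are examples, since Col15a1, Col4a1 and Col4a2 had a higher r with Col1a1 than Col3a1. The Col15a1 window held none of these motifs, and those of Col4a1 and Col4a2 each held 1 CCAAT or ATTGG. A match is a run of letters, not a measured site, and a link between motifs and covariation was not tested.

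Genes that make and handle collagen gave no call either. Of 20 genes of collagen folding and modification tested, 7 had log2 fold changes above 0 and 13 below 0 (median -0.08). P3h2, a prolyl 3-hydroxylase, had 0.83 (SE 0.37), or 0.37 without labelled-deleted tumour 1, and P4ha3, a subunit of prolyl 4-hydroxylase, had 0.32 (SE 0.15). Colgalt1, which adds galactose to hydroxylysine, had -0.25 (SE 0.13), and Sparc, a collagen-binding matrix protein, had -0.42 (SE 0.24), or -0.26 without that tumour. Of these 20 genes 1 had an edgeR unadjusted p under 0.05, near the 5.93% of all genes. Export and propeptide processing gave 8 above and 4 below 0 of 12 tested (median 0.09), 0 of them at an unadjusted p under 0.05. There Tll1, a tolloid-like proteinase, had 0.62 (SE 0.43), Creb3l1, a transcription factor of secretory cells, had -0.41 (SE 0.31), Pcolce, an enhancer of C-propeptide removal, had 0.32 (SE 0.26), and Sec23a, part of the coat of export vesicles, had 0.35 (SE 0.20). Leaving out labelled-deleted tumour 1 gave 0.22 for Tll1, -0.19 for Creb3l1, 0.12 for Pcolce and 0.26 for Sec23a.

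The 6 crosslinking enzymes had 2 log2 fold changes above 0 and 4 below 0 (median -0.19), none at an unadjusted p under 0.05 in edgeR. Loxl2 had -0.31 (SE 0.16), Loxl1 -0.38 (SE 0.22) and Lox -0.29 (SE 0.19). Loxl3, another lysyl oxidase, had 1.54 (SE 0.84) with 809 CPM in labelled-deleted tumour 1 and at most 87.4 CPM in the other 9, and its log2 fold change turned to -0.37 without that tumour. The values without it were -0.19 for Loxl2, -0.26 for Loxl1 and -0.14 for Lox. Of 10 collagen receptors tested, 3 had log2 fold changes above 0 and 7 below 0 (median -0.29), and 4 had an unadjusted p under 0.05 (edgeR), which 5.93% of all genes had. Itga2, the alpha chain of an epithelial and platelet integrin for collagen, had -0.48 (SE 0.17), and Itga10, that of a cartilage integrin, had 1.22 (SE 0.44), or 0.70 without labelled-deleted tumour 1. Lair1, an inhibitory receptor of immune cells, had -0.38 (SE 0.16), and Mrc2, an endocytic receptor that clears collagen fragments, had -0.37 (SE 0.16). Each of these 4 had an adjusted p of 0.759, the lowest adjusted p of the table. Macrophage markers, another immune list, summed to 2142 to 4063 CPM in the wild-type tumours and 919 to 3419 CPM in the labelled-deleted tumours, and the part of immune cells in the Lair1 value was not tested.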

How the data were processed

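Polyadenylated RNA of 10 tumours, 5 per labelled group, was sequenced after KAPA mRNA HyperPrep preparation on a NovaSeq instrument, per the labels' protocols. The authors deposited estimated counts per gene, of which 7.96% were not whole, and normalized log2 values per tumour. The submitters' processing notes list RSEM 1.3.3, HISAT2 2.2.1, DESeq2 1.32.0, bcl2fastq 2.0 and FastQC 0.11.9, with mm10 as genome build. Neither an annotation release nor a strand setting is given in the sources used here. Of the collagen genes, 13 have an exon that overlaps an exon of another gene, 10 of them on the opposite strand, and such reads cannot be assigned with certainty.

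Deposited estimated counts were rounded. Genes passing filterByExpr (minimum count 10, 16565 of 55487) were fitted in R 4.3.3 with edgeR 4.0.16 (TMM scaling, robust quasi-likelihood F test, two-sided, no covariate), and p-values were adjusted by Benjamini-Hochberg over all genes tested at 0.05. The SE of a log2 fold change was derived from its F value. CPM used scaled library sizes, and correlations used log2 CPM with a prior count of 2 and two-sided permutation tests. Alternatives used limma 3.58.1, DESeq2 1.42.0, other scalings, filters and blocks, and each tumour left out. Leaving out labelled-deleted tumour 1 for the named pathway genes was added after seeing the data. Scripts were tested on simulated data. Levels per length used the longest transcript of GENCODE M21, with joined exons as the alternative. Figures were drawn with matplotlib 3.10.9 in Python 3.11.15.

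Collagen genes and all gene lists were chosen with earlier results of these data known. Values by tumour are given for 24 genes: the 2 genes of each class with the highest level per length, the 4 with the smallest p in each direction, and the main chains of types I, III, IV, V and VI. The other 20 are given by range or count in the main results. Col4a3, Col4a4, Col6a4, Col6a5 and Col6a6 are outside this rule and are given by tumour under the other observations. In each pathway list up to 4 members with the smallest p are named. No batch, sex or date is labelled. Replicate tumours are biological replicates per the series' design, and p-values measure the spread between these samples.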

Additional observations from a re-analysis of the deposited data

Results flagged for a closer look

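In each group of 5 tumours, the highest and the lowest value of the 24 collagen genes given by tumour, on the log2 CPM scale, and of the collagen share were set against the other 4. A value stood far from the others, by its gap to the nearest of them over the whole range, in 7 of 50 such groups. Chance gives about 5% of groups. In labelled-deleted tumour 1, Col4a1 was at 434 CPM (others 1584 to 1808), Col4a2 at 392 CPM (others 1123 to 1427) and Col15a1 at 148 CPM (others 572 to 892). The same tumour held Col5a3 at 39.8 CPM (others 126 to 180.0) and Col13a1 at 0.534 CPM (others 6.89 to 12.6). These 5 values come from 1 library and are not independent of each other. In the wild-type group, Col4a6 was at 2.59 CPM in tumour 1 (others 4.03 to 4.65), and Col5a2 was at 1166 CPM in tumour 4 (others 967 to 992).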

How the results depend on the processing

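No setting tried called a collagen gene, although DESeq2 called 7 genes of the whole table where edgeR called 0 (983 at an unadjusted p under 0.05). Over 24 settings, 539 of 574 log2 fold changes of the 24 genes given by tumour kept their sign and 35 turned. One of the settings, an adjusted p threshold of 0.1, reuses the main fit, so its signs could not turn. Col6a2 (-0.0039) turned with DESeq2 size factors (1e-04), no scaling (0.0085), limma-voom (0.0153), quality weights (0.0775), the deposited log2 values (0.0128) and a stricter count filter (0.0014), and lay between -0.23 and 0.24 with single tumours left out. Col6a3 turned with limma-voom (-0.0505) and the deposited log2 values (-0.0206), and lay between -0.21 and 0.32 with single tumours left out. With single tumours left out, Col5a1 lay between -0.19 and 0.0803 and Col18a1 between -0.15 and 0.49. Without labelled-deleted tumours 1 and 2, the values that turned were those of Col1a2 (0.02), Col5a1 (0.0945), Col6a2 (0.28), Col13a1 (0.002), Col15a1 (0.0086), Col18a1 (-0.0619) and Col23a1 (-0.0738). With the number in the tumour ID as a block, those of Col5a1 (0.0268), Col6a2 (0.019), Col13a1 (0.12), Col18a1 (-0.40) and Col28a1 (0.0443) turned, and 23 collagen genes lay above and 16 below 0 (median 0.04). The ID numbers of labelled-deleted tumours 1 and 4 occur in no other tumour, so that fit took no group difference from them. The split was 17 and 22 with size factors or no scaling and 19 and 20 with quality weights. The collagen median lay between -0.35 without labelled-deleted tumour 3 and 0.13 without labelled-deleted tumours 1 and 2. Collagen genes at an unadjusted p under 0.05 in the test of the setting numbered 0 to 5, beside 621 to 1643 of all genes. There were 5 of 40 without labelled-deleted tumour 5, beside 1436 of 16744 genes. Without labelled-deleted tumours 1 and 2 there were also 5 of 40, beside 721 of 17022. Without wild-type tumour 5 there were 0 of 40, beside 621 of 16818.

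With the replicate number as a block (replicate block), 0 genes were called. An edgeR unadjusted p under 0.05 was held by 2 of 39 collagen genes, beside 781 of 16565 genes tested. The collagen median was -0.13, and Col6a2 (0.0188) and Col6a3 (-0.0387) turned. Same-numbered tumours correlated at -0.02 to 0.39, with 3 of 5 pairs over 0.1. For 2 of 5 wild-type tumours, 3 and 5, the closest labelled-deleted tumour was that of the same number. These pairs also share the number in the tumour ID. So do wild-type tumour 1 and its closest, labelled-deleted tumour 2, and wild-type tumour 4 and its closest, labelled-deleted tumour 5. The closest to wild-type tumour 2 was labelled-deleted tumour 4, which has another ID number. The main fit had no term for the ID number, and the labels do not say what it stands for. Whether the replicate numbers pair the tumours is therefore not settled. On residuals from the group means, where p-values can be too small, the correlation with Col1a1 gave 8 collagen genes, and it gave 0 otherwise. With joined exons as the length, the ratio of Col3a1 to Col1a1 was 0.648, of Col5a1 to Col5a2 1.43, of Col6a1 to Col6a2 2.49 and of Col11a1 to Col5a1 0.0428. Loxl3 turned to -0.365 without labelled-deleted tumour 1. The causes of these shifts were not tested. By counts summed over the libraries, Col9a2 (144), Col20a1 (323), Col2a1 (389) and Col9a3 (392) rest on the fewest reads among tested collagen genes, and nothing says that the tumours of a group came from separate litters.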

Other observations

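The minor chains of type VI collagen had wide ranges in both groups. Col6a4, Col6a5 and Col6a6, which can take the place of Col6a3, lie in tandem on chromosome 9. These genes and Col4a3 and Col4a4 were singled out after their values were seen. Col6a4 stood at 0.708, 2.64, 22.5, 0.732 and 4.74 CPM in wild-type tumours 1 to 5 and 0.0890, 10.6, 38.3, 23.4 and 2.70 CPM in labelled-deleted tumours 1 to 5. Col6a5 stood at 10.8, 9.84, 52.1, 9.70 and 6.86 CPM in wild-type tumours 1 to 5 and 0.356, 4.83, 64.0, 29.2 and 12.8 CPM in labelled-deleted tumours 1 to 5. For both, wild-type tumour 3 and labelled-deleted tumours 3 and 4 were the highest 3 libraries and labelled-deleted tumour 1 the lowest. Col6a6 stood at 1.42, 2.10, 18.6, 7.32 and 18.9 CPM in wild-type tumours 1 to 5 and 0.267, 0.852, 28.7, 9.77 and 6.38 CPM in labelled-deleted tumours 1 to 5.

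Col4a3 and Col4a4 lie head to head on chromosome 1 with 71 bases between them, and their chains form a kidney type of basement membrane. Col4a3 stood at 0.708, 3.73, 9.91, 1.89 and 1.61 CPM in wild-type tumours 1 to 5 and 0.623, 2.84, 15.9, 9.71 and 1.91 CPM in labelled-deleted tumours 1 to 5. Col4a4 stood at 0.393, 3.73, 7.10, 1.22 and 2.82 CPM in wild-type tumours 1 to 5 and 0.890, 1.21, 9.69, 5.98 and 0.986 CPM in labelled-deleted tumours 1 to 5. Wild-type tumour 3 and labelled-deleted tumours 3 and 4 were the highest 3 libraries for both chains. They were also the highest 3 for Col5a1, Col6a1, Col6a2 and Col6a3, so this order was not particular to the minor chains. The 8 fibroblast markers summed to 1650, 2467 and 1929 CPM in them, against 1044 to 1659 CPM in the other 7. In the same libraries 4 B cell markers summed to 75.1, 215 and 17.1 CPM, against 1.33 to 22.9 CPM in the other 7. The mesothelial markers Lrrn4 and Upk3b were highest in labelled-deleted tumours 3 (13.4 and 14.0 CPM) and 4 (9.71 and 8.49 CPM), and at most 2.37 and 5.24 CPM elsewhere, but Msln was at 137 CPM in labelled-deleted tumour 3, the lowest of its group, and at 431 CPM in wild-type tumour 2. All 4 mesothelial markers summed to 129 to 464 CPM in the wild-type tumours and 214 to 334 CPM in the labelled-deleted tumours, with labelled-deleted tumour 3 lowest among the latter. The part of these cell types in the collagen values was not tested.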
